A study of Mus musculus with 20 samples.

Results

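The comparison described here is between neutrophils of Ager-/- mice and neutrophils of Ager AHA/AHA mice, the knockout and the knock-in of RAGE, a pattern-recognition receptor encoded by the gene Ager. Its members were chosen by their labels, as the 3 neutrophil libraries labelled RAGE-/- (KO1, KO4 and KO6, called KO) and the 3 labelled RAGE knock-in (AHA2, AHA4 and AHA6, called AHA), which are 6 of the 20 libraries of the series. The study also holds 3 wild-type (WT) neutrophil libraries and 11 libraries of perfused lung from the same genotypes, and it set each mutant against WT. All the mice carried the C57BL/6 strain label. Every neutrophil donor, WT included, had an air pouch raised under the skin of the back, received 1 μg of bacterial lipopolysaccharide (LPS) in it, and had the pouch washed out 4 h later. The cells were used without a sort, and the authors describe them as almost pure polymorphonuclear neutrophils (PMN). The knock-in was made by CRISPR editing of C57BL/6J eggs, with point mutations at 3 neighbouring arginines in a part of RAGE that binds heparan sulfate, whereas the knockout is an existing line from another laboratory. Each mutant is thus 1 line, and a difference that comes with the Ager allele and one that comes with the rest of a line's genome cannot be told apart. The study treats the libraries of a genotype as biological replicates from separate mice.

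RAGE is an immunoglobulin-like receptor of the cell surface that binds advanced glycation end-products, HMGB1, S100 proteins and amyloid peptides, and it is known for sustaining inflammation through NF-κB. Heparan sulfate, a charged sugar chain of the cell surface, binds the extracellular domains of RAGE and brings receptors together into oligomers. Neutrophils are short-lived phagocytes that LPS drives to make chemokines, cytokines and interferon-inducible proteins. The knockout removes the receptor and the knock-in was made to keep it with impaired binding to heparan sulfate, so the direct contrast asks where the whole receptor's loss and that impairment leave different transcripts.

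Ager, the targeted gene (ENSMUSG00000015452, mm10 chr17:34597862-34600936, plus strand), holds a run of 3 arginine codons in its exon 6. The reference sequence around this run is shown because the knock-in changes 3 neighbouring arginines. The codons are in capitals and encode residues 214 to 216 of the 402 residues of the annotated transcript read here, at mm10 chr17:34599183-34599245, and the counts do not tell the 2 alleles apart there. The study numbers the changed arginines differently, and they are taken to be these because the translated transcript holds no other run of this kind.
Ager exon 6: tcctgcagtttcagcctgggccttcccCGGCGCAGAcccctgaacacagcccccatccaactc
Ager had 101, 60 and 70 counts in KO1, KO4 and KO6, 15, 44 and 29 counts in AHA2, AHA4 and AHA6, and 15 to 37 counts in WT neutrophils. These were 3.78, 2.61 and 3.60 counts per 1000000 (CPM) in KO and 0.891, 1.88 and 1.203 CPM in AHA, so the libraries labelled as knockout held the higher values and the groups did not overlap. The fitted difference, KO minus AHA, was 1.31 on the log2 scale (SE 0.35) and did not pass the test (adjusted p = 0.161, edgeR's quasi-likelihood test with Benjamini-Hochberg adjustment). Ager counts in neutrophils therefore gave no check of the knockout label, and groups are named by their labels throughout. In lung, where WT carried 39913 to 65695 counts, the libraries labelled KO had 473 to 622 and those labelled AHA 34769 to 70580, a difference of -6.20 on the log2 scale (adjusted p = 4.29e-11).

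Total counts were 17109497 to 22171253 in the KO libraries, 19934817 to 23522678 in the AHA libraries and 18226486 to 19584101 in WT neutrophils. TMM factors were 1.14 to 1.21 in KO and 0.845 to 1.05 in AHA. Spearman correlations of log2 CPM were 0.967 to 0.983 within KO, 0.971 to 0.975 within AHA and 0.948 to 0.976 between the mutants, and no pair of libraries agreed within sampling noise. CT010467.1, a ribosomal RNA fragment, stood at 1968 and 5174 CPM in AHA2 and AHA6 against 108 CPM in AHA4 and 118 to 313 CPM in KO. KO1 held the highest sum of regulatory T cell and group 2 lymphoid markers, 371 CPM against 96.5 to 179 CPM in AHA.

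The 2 mutants differed in few genes. Of 11632 genes tested, 53 were called (0.456%), at an adjusted p under 0.05 and a log2 difference beyond 1 in either direction. In KO 26 genes were higher (0.224%) and 27 were lower (0.232%). The adjusted p alone passed 62 genes (0.533%). An unadjusted p under 0.05 was found for 1145 genes (9.84%), 640 of them lower and 505 higher in KO. All 53 called genes had 3 KO values on one side of the 3 AHA values, which was also true of 1870 of the genes tested (16.1%). Of the 26 genes higher in KO, 14 were annotated as protein coding and 12 as pseudogenes or non-coding RNAs, and of the 27 lower genes 20 were protein coding. Scaling by total counts without TMM moved the median of all genes from 0.04 to 0.30 on the log2 scale, and the calls then split into 40 higher and 16 lower.

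**Figure D1:**
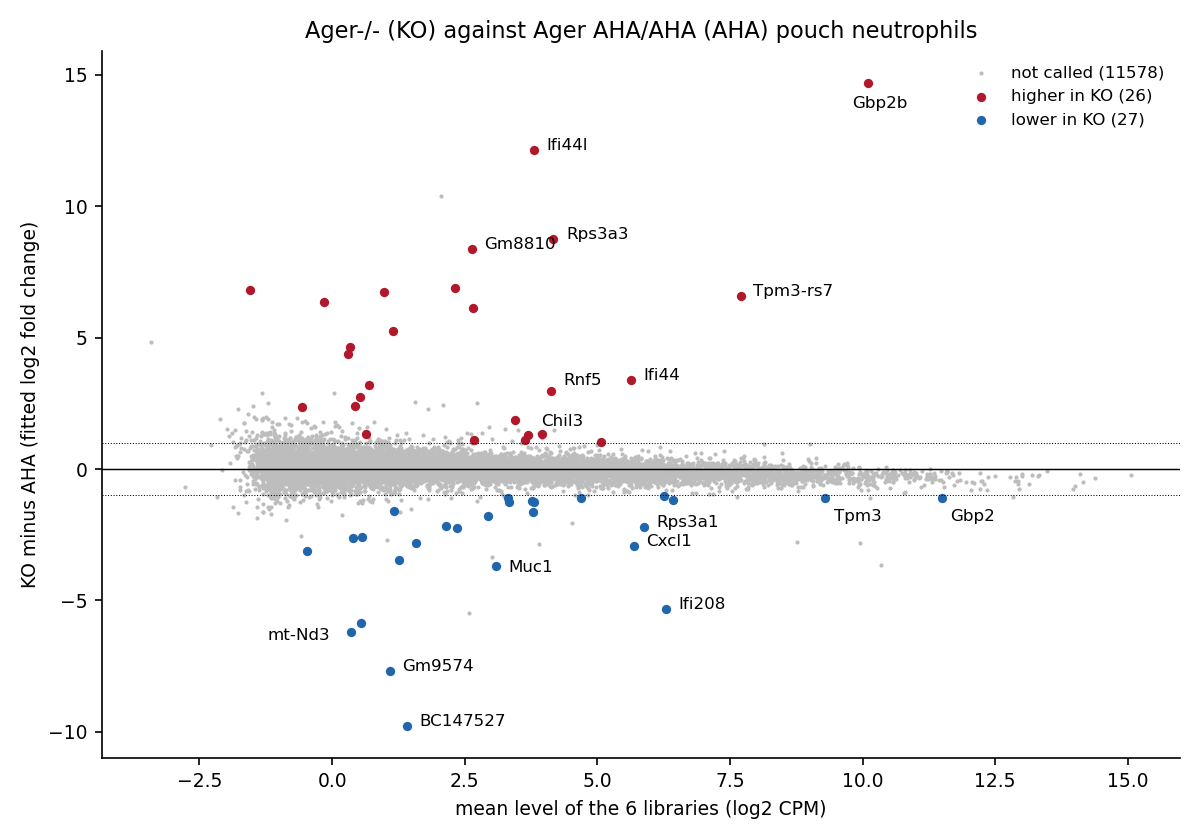
Fitted log2 difference of KO minus AHA neutrophils (vertical axis) against the mean log2 CPM of the 6 libraries (horizontal axis), 1 point per gene; red genes were called higher in KO (26), blue genes lower (27), and the dotted lines mark the fold threshold. Gbp2b stands apart at 14.69 and at a high mean level, while most called genes lie at low levels.

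The largest differences lay in interferon-inducible genes whose transcripts were missing from AHA and present in KO. Gbp2b encodes a guanylate-binding protein, 1 of a family of interferon-induced GTPases that attack the vacuoles of intracellular microbes. Gbp2b (ENSMUSG00000040264, mm10 chr3:142594847-142619179) stood at 1760.4, 2374 and 2493 CPM in KO1, KO4 and KO6 and at 0, 0.171 and 0.0415 CPM in AHA2, AHA4 and AHA6. The KO libraries held 150208 counts of it and the AHA libraries 5, a ratio of 27947 (95% exact counting interval 11975 to 86072, which covers counting error only). WT neutrophils had 2817, 2935 and 2035 CPM, so KO overlapped the WT range and AHA alone was close to 0. The fitted log2 difference was 14.69 (SE 0.43, adjusted p = 9.12e-14).

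Gbp2, the neighbour that begins 1422 bases after the end of Gbp2b on the same strand, went the other way. It stood at 1375, 2017 and 2089 CPM in KO and at 5161, 3042 and 3600.5 CPM in AHA, against 2643, 2689 and 1882 CPM in WT. AHA was the higher group, AHA2 the highest library, and the groups did not overlap. The log2 difference was -1.11 (SE 0.23, adjusted p = 0.027), and the call was lost in 9 of 19 alternatives, among them without AHA2 (-0.87, adjusted p = 0.17), without AHA6 (adjusted p = 0.055) and without any of the KO libraries (0.068 to 0.096). Of the 11 guanylate-binding proteins tested, the remaining 9 were not called. Gbp3, on the same chromosome, stood at 479.5, 699 and 752 CPM in KO and 579, 398 and 456 CPM in AHA, with overlapping groups (0.43, adjusted p = 0.50).

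The stretches before the annotated starts of Gbp2b and Gbp2 are shown because these neighbours share a motif there and differ in opposite directions. Each is the 150 bases of the RefSeq promoter table (GRCm38.p6) that end at the position given, with the letters TTCACTTTC in capitals, a match to GAAANNGAA (from the core of an interferon-stimulated response element) read on the minus strand.
Gbp2b, chr3:142594697-142594846, plus strand: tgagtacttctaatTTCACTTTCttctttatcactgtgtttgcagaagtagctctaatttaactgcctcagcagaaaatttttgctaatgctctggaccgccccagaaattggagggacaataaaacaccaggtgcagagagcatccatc
Gbp2, chr3:142620513-142620662, plus strand: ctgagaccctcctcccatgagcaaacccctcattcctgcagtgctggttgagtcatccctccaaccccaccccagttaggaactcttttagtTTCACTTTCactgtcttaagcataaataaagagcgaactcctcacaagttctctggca
The match lay 127 bases before the RefSeq start of Gbp2b and 49 bases before that of Gbp2. In the count table Gbp2 begins farther upstream, at base 142620602, so there the match lies just inside the gene. Over the 250 bases before the start and on both strands, GAAANNGAA was in 2342 of 32851 promoters of the table (7.13%). Of 32 called genes with a promoter there, 6 held it, Gbp2b, Gbp2, Ifi44l, Ifi208, Chil3 and BC147527, and no window of Ifi44 held these letters. A match describes the sequence only.

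Ifi44l and Ifi44, interferon-inducible genes 8776 bases apart on chromosome 3, were both higher in KO. Ifi44l (chr3:151758737-151762892) stood at 27.4, 25.6 and 30.8 CPM in KO and had no count in any AHA library. The KO libraries held 1922 counts, which makes the level at least 596-fold higher in KO, against a floor of 3 counts over the AHA group (adjusted p = 1.68e-10). WT neutrophils had 13.9, 22.9 and 16.6 CPM. Ifi44 (chr3:151730922-151749960) stood at 81.9, 93.0 and 98.3 CPM in KO, at 7.67, 7.76 and 10.9 CPM in AHA and at 47.4, 80.8 and 50.04 CPM in WT. Every KO library lay above the WT libraries, the lowest only narrowly, and every AHA library lay below them. KO minus WT was 0.62 and did not pass the test (adjusted p = 0.0635), while AHA minus WT was -2.75 (adjusted p = 1.26e-06). The log2 difference between the mutants was 3.37 (SE 0.23, adjusted p = 2.83e-08), and these comparisons share libraries. Among the 36 type I interferon-stimulated genes tested, Ifi44l and Ifi44 were the 2 called. The remaining 34 were not called in either direction, the median over the list was -0.24 against 0.04 over all genes tested, and 30 members were below 0. Of all genes tested, 5265 were below 0 and 6366 above. With an unadjusted p under 0.05, 12 members were lower in KO and 4 higher, and the 12 became 3 without AHA2 and 6 without KO1 or KO4. At that p, 640 of all 11632 genes tested were lower and 505 higher.

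Ifi208, of the PYHIN family of interferon-inducible DNA sensors, was lower in KO. It stood at 1.61, 6.56 and 3.45 CPM in KO and at 178, 129.7 and 152 CPM in AHA, with 141, 94.0 and 62.4 CPM in WT. KO was far below both groups (-5.31, SE 0.51, adjusted p = 0.000649). The pseudogene Gm18752, which follows it on chromosome 1, was lower too (-2.61, adjusted p = 0.00347). The other 12 PYHIN genes tested were not called, and Aim2, the cytosolic DNA sensor of an inflammasome, stood at 13.4 to 18.3 CPM in KO and 19.1 to 20.3 CPM in AHA (-0.32, adjusted p = 0.57). Of 11 immunity-related GTPases, the other family of vacuole-attacking GTPases, 0 were called by edgeR and 0 by DESeq2. Of those 11, 5 were lower and 1 higher with an unadjusted p under 0.05, which 9.84% of all genes tested had. The 5 became 0 without AHA2 and 1 without KO1. Irgm1 stood at 610.4, 874 and 845 CPM in KO and at 1509, 989 and 1004 CPM in AHA (-0.59, adjusted p = 0.38).

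**Figure D2:**
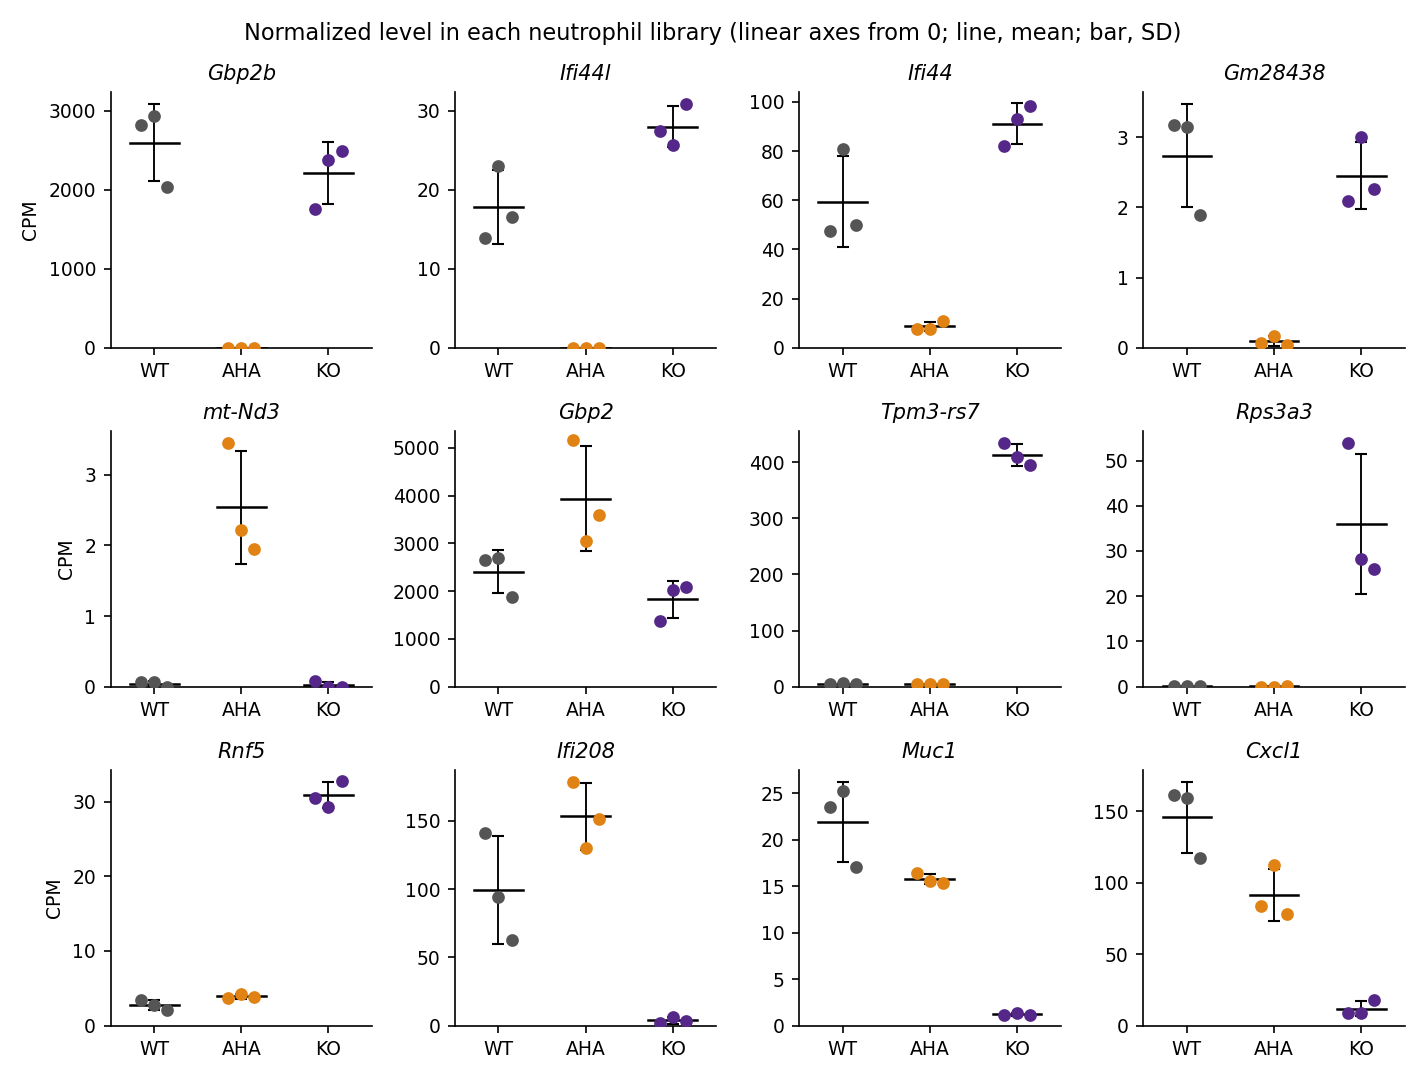
Normalized level (CPM, linear axes from 0) of 12 genes in each WT, AHA and KO neutrophil library; points are libraries, lines the means of 3 libraries and bars the SD. Gbp2b, Ifi44l, Ifi44 and Gm28438 are low in AHA alone, Ifi208, Muc1 and Cxcl1 are low in KO alone, and Tpm3-rs7, Rps3a3 and Rnf5 are high in KO alone.

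Cxcl1, a chemokine that draws neutrophils through the receptor Cxcr2, was the chemokine that differed. It stood at 8.82, 8.95 and 18.1 CPM in KO and at 84.0, 112 and 78.3 CPM in AHA, with 161, 159 and 117 CPM in WT. Every KO library lay below every AHA library, and every AHA library below every WT library. The log2 difference between the mutants was -2.94 (SE 0.27, adjusted p = 1.95e-06), KO minus WT was -3.61 and AHA minus WT was -0.67 (adjusted p = 0.126). These comparisons share libraries. The sequence before Cxcl1 (chr5:90891095-90891244, plus strand) is shown because the NF-κB motif of this gene is well known, with the match to GGAATTTCC in capitals.
Cxcl1: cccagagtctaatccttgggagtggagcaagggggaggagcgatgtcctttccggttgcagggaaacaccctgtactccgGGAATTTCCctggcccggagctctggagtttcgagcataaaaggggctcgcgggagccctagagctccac
That match lay 61 bases before the RefSeq start, and within 250 bases, on both strands, the motif was in 94 of 32851 promoters (0.29%) and in those of 1 called gene, Cxcl1 itself. Of the 12 CXC chemokines tested, no member beside Cxcl1 was called by edgeR, whereas DESeq2 called 3 of the 12 lower. Cxcl10 stood at 3404, 5448 and 5396 CPM in KO and at 12743, 8884 and 7773 CPM in AHA, without overlap, and missed the threshold (-1.05, adjusted p = 0.0658). Cxcl2, the close relative of Cxcl1, stood at 12074, 12802 and 13579 CPM in KO and at 24864, 17725 and 17116 CPM in AHA (-0.63, adjusted p = 0.26). Of 13 CC and C chemokines, 0 were called by edgeR, and 1 was lower with an unadjusted p under 0.05, which 9.84% of all genes tested had in either direction.

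Muc1 and Trim46, which lie 795 bases apart on opposite strands of chromosome 3, were both lower in KO. Muc1 encodes a transmembrane mucin and Trim46 a ubiquitin ligase of the TRIM family that organizes microtubules in neurons. Muc1 (chr3:89229057-89233381) stood at 1.12, 1.39 and 1.18 CPM in KO, at 16.5, 15.5 and 15.4 CPM in AHA and at 23.6, 25.2 and 17.03 CPM in WT. The KO values were below all others, with a log2 difference of -3.67 (SE 0.22, adjusted p = 4.51e-09). Trim46 (chr3:89234177-89246309) stood at 0.860, 0.652 and 0.720 CPM in KO and at 5.11, 5.03 and 5.52 CPM in AHA (-2.79, SE 0.25, adjusted p = 1.66e-06).

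Several called genes are near-identical copies of another gene. For mt-Nd3, Rps3a1 and Tpm3 the parent was lower in KO where a copy was higher, while other called copies had no called parent. Of the 53 called genes, 31 had a transcript that matched one of another gene over at least 150 bases at 95% identity or more, 17 of the 26 higher and 14 of the 27 lower genes. Such a match need not be a copy. The longest match of Gprc5b was to Iqck over 606 of its 4518 transcript bases, and that of Acp6 to Furin over 187 of 3291. Of the 11623 tested genes with an annotated transcript, 3660 had such a match (31.5%). The sources used here do not say how reads that match several genes were counted, so the split between such copies is uncertain. Of the 21 parent and copy genes on a list drawn up for this, 7 were called higher and 4 lower. That list was made with results of these data known, and it is not independent evidence.

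The clearest pair is mt-Nd3, a complex I subunit of the mitochondrial genome, and Gm28438, its copy on chromosome 1 (chr1:24612775-24613119). Their first 60 coding bases are shown because they hold the 1 base in 345 at which the copies differ (99.7% identity), printed as a capital.
mt-Nd3: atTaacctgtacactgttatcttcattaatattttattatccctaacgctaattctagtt
Gm28438: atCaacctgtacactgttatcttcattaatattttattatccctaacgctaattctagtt
Gm28438 stood at 2.09, 3.00 and 2.26 CPM in KO and at 0.0594, 0.171 and 0.0415 CPM in AHA (4.63, SE 0.48, adjusted p = 1.16e-05). mt-Nd3 stood at 0.0748, 0 and 0 CPM in KO and at 3.45, 2.22 and 1.95 CPM in AHA (-6.19, SE 0.69, adjusted p = 2.61e-05). KO resembled WT at both genes, and AHA held nearly all its counts at mt-Nd3. Summed, the pair stood at a mean of 2.48 CPM in KO and 2.63 CPM in AHA (-0.07, adjusted p = 0.954), a sum chosen after seeing the data. The other 10 mitochondrial genes tested were not called.

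Rps3a1 encodes a protein of the small ribosomal subunit, and Rps3a2 and Rps3a3 are its processed copies. In coding bases 615 to 674 the letters that differ between these genes are in capitals, and over their length Rps3a2 differs from Rps3a1 at 4 of 792 bases and Rps3a3 at 9 of 795.
Rps3a1: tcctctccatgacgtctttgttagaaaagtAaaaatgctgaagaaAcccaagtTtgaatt
Rps3a2: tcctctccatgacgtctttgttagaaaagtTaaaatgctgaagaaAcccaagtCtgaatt
Rps3a3: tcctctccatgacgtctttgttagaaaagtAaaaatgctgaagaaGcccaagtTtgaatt
Rps3a1 stood at 29.1, 17.3 and 16.1 CPM in KO and at 92.6, 103 and 94.4 CPM in AHA (-2.21, SE 0.21, adjusted p = 3.94e-06). Rps3a3 stood at 53.8, 28.2 and 26.02 CPM in KO and at 0, 0 and 0.207 CPM in AHA (8.76, SE 0.54). Rps3a2 stood at 10.7, 11.1 and 7.71 CPM in KO and at 0.0426 to 0.124 CPM in AHA (6.88, SE 0.42). The parent was thus low where its copies were high, KO1 was the highest KO library of Rps3a1 and Rps3a3, and the sum of the 3 genes did not pass the test (-0.54, adjusted p = 0.426).

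Tpm3 encodes a tropomyosin that coats actin filaments, and Tpm3-rs7 is a copy on chromosome 14. Coding bases 68 to 127 are shown because they hold all 3 of the 747 bases at which the copy and the Tpm3 transcript closest to it differ, in capitals.
Tpm3: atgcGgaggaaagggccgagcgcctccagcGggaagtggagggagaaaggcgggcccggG
Tpm3-rs7: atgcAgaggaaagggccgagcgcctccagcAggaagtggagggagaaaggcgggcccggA
Tpm3-rs7 stood at 434, 408 and 395 CPM in KO and at 4.58, 3.97 and 4.40 CPM in AHA, with 4.38 to 5.68 CPM in WT (6.58, SE 0.21, adjusted p = 2.16e-13). Tpm3 stood at 345, 415 and 433 CPM in KO and at 985, 795 and 805 CPM in AHA (-1.12, SE 0.19, adjusted p = 0.00365), which fell under the fold threshold when counts were scaled without TMM (-0.84). The sum was 810 CPM in KO and 866 CPM in AHA on average, and it did not pass the test (-0.10, adjusted p = 0.886). The ribosomal copies Rps13-ps1 (6.13) and Rps15a-ps7 (4.39) were higher in KO, while their parents Rps13 (-0.61, adjusted p = 0.268) and Rps15a (0.11, adjusted p = 0.868) were not called. The summed Rps13 and Rps15a families did not pass the test either (adjusted p = 0.686 and 0.773). With families of copies summed, 19 genes were higher and 24 lower.

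Genes beside Ager differed between the mutants. On chromosome 17, 10 of 616 tested genes were called (1.62%), and all 10 lay within 10 Mb of Ager, among 277 tested genes (3.61%), with 7 higher and 3 lower. Rnf5, a ubiquitin ligase of the endoplasmic reticulum whose 3′ end lies 154 bases beyond the end of Ager on the opposite strand, stood at 30.5, 29.3 and 32.7 CPM in KO and at 3.68, 4.26 and 3.82 CPM in AHA. AHA lay near WT (3.43, 2.72 and 2.11 CPM), and KO alone was high (2.97, SE 0.20, adjusted p = 2.08e-08). Pbx2, a homeodomain transcription factor whose gene ends 461 bases before Ager, stood at 40.4, 48.2 and 46.9 CPM in KO and at 22.8, 23.2 and 19.9 CPM in AHA (1.04, SE 0.17, adjusted p = 0.00293). Pbx2 fell under the fold threshold without AHA6 (0.96). Its call was also lost with limma on log2(FPKM + 0.1) (0.94, adjusted p = 0.239) and on log2(FPKM + 1) (0.90, adjusted p = 0.237). Agpat1, the next gene after Rnf5, stood at 20.5, 18.1 and 16.8 CPM in KO and 7.84, 11.9 and 11.3 CPM in AHA, without overlap, and was not called (0.83, adjusted p = 0.0658). Ager itself, between Pbx2 and Rnf5, had its higher values in KO too, as given above.

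Farther along, in the major histocompatibility region (chr17:36066108-36171805), lay 6 called genes and pseudogenes. Gm8810 stood at 10.9, 11.3 and 15.1 CPM in KO and had 2 counts in all AHA libraries together, a ratio of 392 (95% exact counting interval 108 to 3243). Gm9574 went the other way, with 1 count in all KO libraries against 5.59, 3.16 and 3.98 CPM in AHA, a ratio of 284 (50.5 to 11251). Gm8909 stood at 1.35, 1.61 and 2.42 CPM in KO and had 1 count in AHA. Gm20478, which overlaps Gm8909 by 556 bases on the other strand, was at least 14.6-fold higher in KO, and reads of this pair cannot be told apart if strand was not used in counting. Gm10499 (2.76) and Gm19684 (1.33) were higher as well. H2-Q7, a class Ib histocompatibility gene of the same region, passed the adjusted p but not the fold threshold, at 322, 291 and 499.96 CPM in KO and 193, 211 and 167 CPM in AHA (0.96, adjusted p = 0.0354). H2-M3, which presents formylated peptides, was lower at 8.11, 8.47 and 10.1 CPM in KO and 17.5, 15.4 and 16.8 CPM in AHA (-0.90, adjusted p = 0.0198). With the genes within 10 Mb of Ager left out, 19 genes were higher and 24 lower.

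Called genes lay together on other chromosomes as well. Joined where they were less than 5 Mb apart, 33 of the 53 fell into 10 windows and 20 stood alone. Each window runs from its first to its last called gene, so its share of called genes is raised by how it was drawn. How many of 53 genes would join by position alone was not tested. Chromosome 3 held 12 of 557 tested genes (2.15%), among them 5 of the 79 tested in the window from Gm7115 to Tpm3. These 5, with Rps3a1, Muc1 and Trim46 among them, were all lower in KO. Gbp2b with Gbp2, and Ifi44 with Ifi44l, formed 2 more windows there. Another held Gm42743, a long non-coding RNA (3.40, 3.48 and 4.83 CPM in KO and 0 to 0.0426 CPM in AHA), and Acp6, a lysophosphatidic acid phosphatase (2.92, 3.56 and 2.31 CPM in KO and 0.297, 0.426 and 0.207 CPM in AHA). On chromosome 7, 4 of 14 tested genes of 1 window were called. Gprc5b, an orphan receptor, stood at 3.85, 2.35 and 6.84 CPM in KO and 0, 0.213 and 0.0830 CPM in AHA. Gde1, a glycerophosphodiester phosphodiesterase, stood at 19.1, 17.1 and 15.4 CPM in KO and 4.34, 3.84 and 5.97 CPM in AHA. Both were higher in KO, and Pik3c2a and Xylt1 of the same window were lower. The Pik3c2a call was lost in 9 of 19 alternatives, among them without AHA2 (adjusted p = 0.17), AHA6 (0.11) or KO4 (0.054) and, under the fold threshold, without KO1 (-0.89). On the X chromosome Mid1, a microtubule-bound ubiquitin ligase, and the transcripts G530011O06Rik and Gm15726 that overlap it were lower in KO, with Mid1 at 0.411, 0.435 and 0.309 CPM in KO, 6.77, 2.98 and 3.44 CPM in AHA and 1.61 to 1.72 CPM in WT. Gm15726 stayed called in 9 of 18 alternatives, and not without AHA2 (adjusted p = 0.34), AHA6 (0.07), KO4 (0.18), KO6 (0.14) or WT1 (0.068). No gene of chromosomes 6, 15, 16 or 18 was called. Whether such windows differ between the lines in DNA sequence was not tested.

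**Figure D3:**
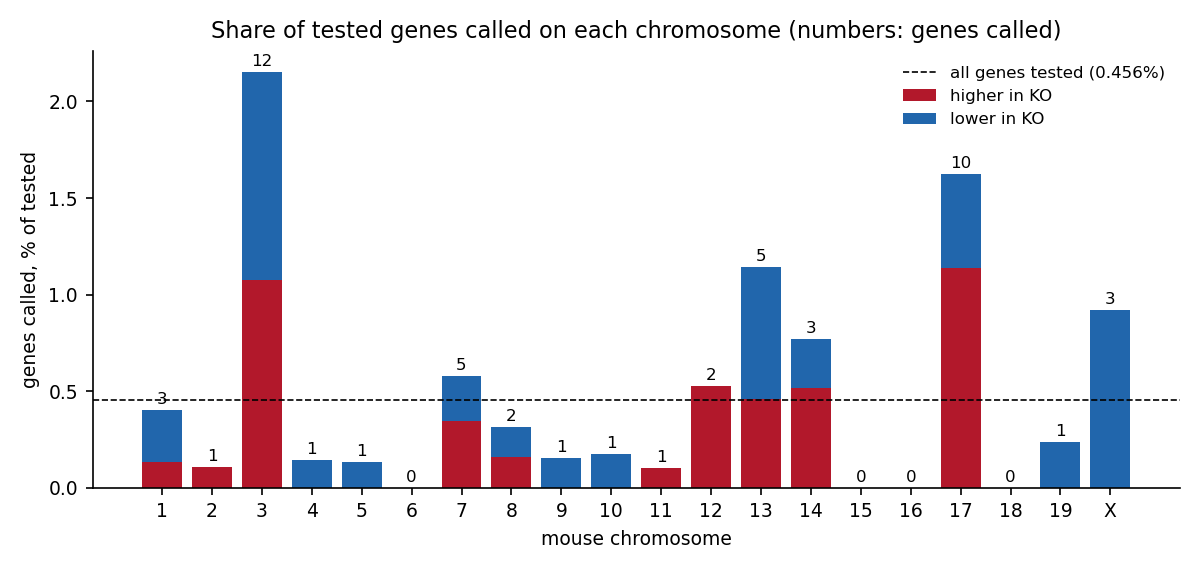
Genes called between KO and AHA neutrophils as a percentage of the genes tested on each chromosome; red is higher and blue lower in KO, numbers above bars are the genes called, and the dashed line is the percentage over all genes tested. Chromosome 3 reaches 2.15% and chromosome 17 1.62% against 0.456% over all genes, and the mitochondrial genome, with 1 called gene, is not drawn.

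Further protein-coding genes differed. BC147527 had no count in any KO library and 6.12, 4.09 and 5.81 CPM in AHA, at least 121-fold lower in KO (adjusted p = 1.32e-07). Xylt1, which adds the xylose that starts heparan sulfate and chondroitin sulfate chains, stood at 48.2, 60.2 and 51.1 CPM in KO, 116, 115 and 128 CPM in AHA and 80.1, 71.5 and 126 CPM in WT (-1.17, SE 0.20, adjusted p = 0.00556). Of 24 genes of heparan sulfate synthesis and proteoglycans, Xylt1 alone was called. With an unadjusted p under 0.05 there were 2 lower members and 0 higher, and the median was 0.25. That p was found for 9.84% of all genes tested, in either direction. Xylt1 missed the threshold when counts were scaled without TMM (-0.91, adjusted p = 0.096).

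Fosl1, an AP-1 transcription factor subunit, stood at 7.78, 7.65 and 9.10 CPM in KO, 20.8, 16.5 and 20.1 CPM in AHA and 24.9, 19.2 and 30.1 CPM in WT (-1.23, SE 0.20, adjusted p = 0.00244). Its call was lost when counts were scaled without TMM (-0.96, adjusted p = 0.069) and on log2(FPKM + 0.1) (adjusted p = 0.051). Chil3, a chitinase-like secreted protein of myeloid cells, was higher in KO at 11.5, 22.3 and 21.9 CPM against 8.68, 6.61 and 7.14 CPM in AHA (1.31, SE 0.25, adjusted p = 0.0158). KO1 lay nearest to AHA, and WT was higher still at 25.1, 23.9 and 38.3 CPM. The Chil3 call was lost without AHA2 (adjusted p = 0.05), AHA4 (0.082), AHA6 (0.091), KO4 (0.096) or KO6 (0.08). Pgf, an angiogenic growth factor of the VEGF family, stood at 3.40, 1.30 and 2.16 CPM in KO and 0.357, 0.384 and 0.539 CPM in AHA (2.40, adjusted p = 0.00611), and was not called without AHA2 (adjusted p = 0.056). Cep85, a centrosomal protein, stood at 2.84, 3.39 and 4.06 CPM in KO and 9.86, 14.8 and 10.8 CPM in AHA (-1.79, SE 0.22, adjusted p = 7.45e-05). Parp8 (-1.24) and Ankrd66 (-2.22) were lower in KO as well, and Parp8 fell just short when counts were scaled without TMM (-0.98, adjusted p = 0.058).

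WT values were set beside both mutants. The mean of WT was nearer to AHA for 42 of the 53 called genes, 18 of the higher and 24 of the lower ones, and nearer to KO for 11. The 8 higher genes with WT near KO were Gbp2b, Ifi44l, Ifi44, Gm28438, Gm5900, Gm12183, Gm19951 and Chil3. Of these, the Gm12183 call was lost without any 1 of the 9 libraries (adjusted p = 0.058 to 0.16). The Gm5900 call was lost without AHA2 (0.20), AHA4 (0.13), KO1 (0.11), KO6 (0.11) or any of the WT libraries (0.055 to 0.059), and the Gm19951 call without AHA4 (0.064), AHA6 (0.10) or KO4 (0.067). For Gbp2b, KO minus WT was -0.23 (adjusted p = 0.497) and AHA minus WT was -14.92 (adjusted p = 7.4e-14). For Tpm3-rs7, KO minus WT was 6.37 and AHA minus WT was -0.21 (adjusted p = 0.549). Muc1 gave -4.15 in KO and -0.47 in AHA (adjusted p = 0.147). Mid1 differed from WT in both, with -2.07 in KO (adjusted p = 0.0055) and 1.40 in AHA (adjusted p = 0.0291), and Gbp2 passed the test in neither, with -0.40 in KO (adjusted p = 0.238) and 0.71 in AHA (adjusted p = 0.0844). All of these values share the WT libraries.

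The genes of the RAGE pathway showed small differences. Of 12 genes for RAGE ligands, 0 were called by edgeR or by DESeq2, with 1 higher and 1 lower at an unadjusted p under 0.05 and a median of -0.11. At that p, 505 of all 11632 genes tested were higher and 640 lower (9.84% in all), and 1763 passed it when scaled without TMM. Scaled without TMM, these genes had a median of 0.17, with 1 higher and 0 lower. S100a9 and S100a8, the subunits of calprotectin and among the most abundant neutrophil messages, had log2 differences of -0.08 (adjusted p = 0.922) and -0.30 (adjusted p = 0.702). S100a9 stood at 12305, 10417 and 10570.5 CPM in KO and 14869, 10009 and 10264 CPM in AHA, with overlapping groups. Hmgb1, the nuclear protein that acts as a danger signal outside cells, stood at 22.9, 20.6 and 15.1 CPM in KO and 18.4, 17.4 and 17.01 CPM in AHA (0.15, adjusted p = 0.82). S100a11 gave -0.54 (adjusted p = 0.409), App -0.14 (adjusted p = 0.825) and Lgals3 -0.17 (adjusted p = 0.764). C1qa, a complement subunit made by macrophages, gave 0.56 (adjusted p = 0.421). Of 38 genes of RAGE and Toll-like receptor signaling, 0 were called by either tool, and the median was -0.19. With an unadjusted p under 0.05, 1 was higher and 6 lower, beside the 505 and 640 of all genes tested. Scaled without TMM, 4 were higher and 0 lower, with a median of 0.08, so the direction of these shifts depended on the scaling. Tlr4, the LPS receptor, gave -0.27 (adjusted p = 0.66), and Nfkbia, the NF-κB inhibitor, -0.32 (adjusted p = 0.64).

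LPS-induced and immediate early genes lay mostly below 0 without passing the test. Of 23 LPS-induced cytokine genes, 0 were called by edgeR and 1 by DESeq2 (lower). With an unadjusted p under 0.05, 9 were lower and 2 higher, and the median was -0.37. Over all 11632 genes tested, 640 were lower and 505 higher at that p. Il1b stood at 10750.2, 11909 and 13230.2 CPM in KO and 25160.1, 19121 and 15939.6 CPM in AHA (-0.75, adjusted p = 0.19). The nearest to the threshold were Ptgs2, the inducible cyclooxygenase (-0.86, adjusted p = 0.0634), and Il1a (-0.90, adjusted p = 0.0723), which were chosen for mention after their values were seen. Il1a stood at 1181, 1138 and 1357 CPM in KO and 3038, 1961 and 1877 CPM in AHA. AHA2 was the highest library for Il1b, Il1a and Ptgs2, and the 9 lower members became 5 without it. Of 22 AP-1 and EGR immediate early genes, Fosl1 alone was called, 12 had an unadjusted p under 0.05 in the lower direction and 0 in the higher, and the median was -0.44. Fos, the founding AP-1 member, stood at 59.1, 90.8 and 94.0 CPM in KO and 183, 114 and 161 CPM in AHA (-0.91, adjusted p = 0.0695). The 12 became 8 without AHA2 and 7 when counts were scaled without TMM.

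**Figure D4:**
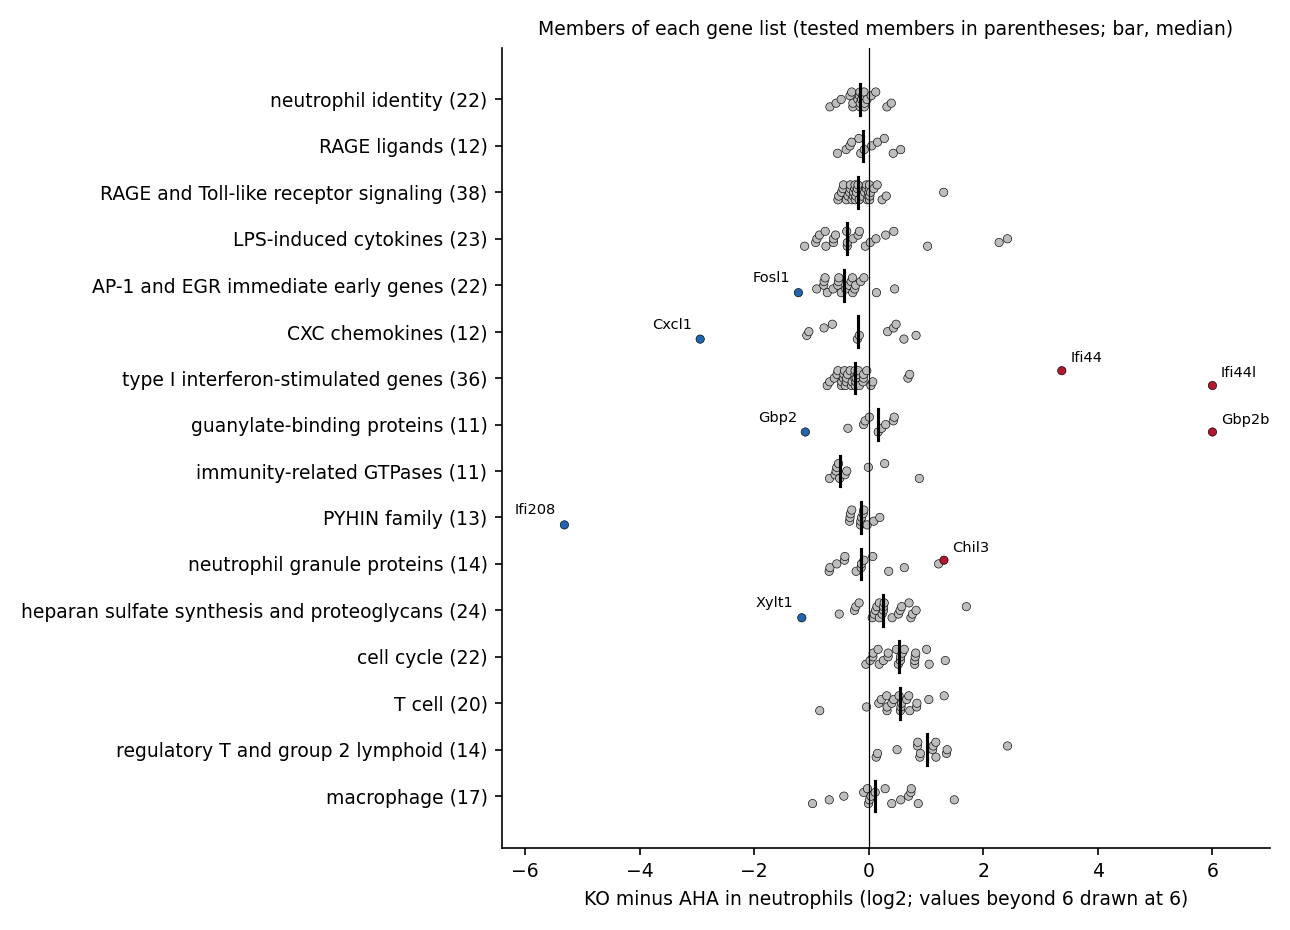
Log2 difference of KO minus AHA neutrophils for the tested members of 16 gene lists, 1 point per gene, with the median of each list as a bar and called genes in red (higher in KO) or blue (lower in KO) with their names. Values beyond 6 are drawn at 6, as for Ifi44l (12.15) and Gbp2b (14.69); the lists were chosen with earlier results of these data known.

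The cells carried neutrophil messages in both mutants. The summed level of 22 neutrophil identity genes was 37430 to 38197 CPM in KO, 38231 to 51891 CPM in AHA and 44961 to 63420 CPM in WT, and 0 of the 22 were called by either tool. With an unadjusted p under 0.05, 3 were lower and 0 higher, and when counts were scaled without TMM 1 was lower and 3 higher. Of all 11632 genes tested, 1145 passed that p in the main fit and 1763 without TMM. Transcripts of markers that the study measured as protein on the cell surface were not called. By flow cytometry the study found Ly6C and CD45 much higher on KO neutrophils than on WT ones. It found both normal on AHA neutrophils, and CD11b normal in KO. In its own RNA comparison of KO with WT, neither Ly6C nor CD45 was among the differing genes. Ptprc (CD45) gave -0.32 (adjusted p = 0.619), Itgam (CD11b) -0.33 (adjusted p = 0.54), Ly6c2 -0.23 (adjusted p = 0.774) and Ly6c1 0.09 (adjusted p = 0.967). Ly6g, the mouse neutrophil surface marker, stood at 40.6, 27.9 and 35.9 CPM in KO and 64.7, 52.8 and 37.8 CPM in AHA (-0.57, adjusted p = 0.42).

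Markers of other cells were present and moved with the groups in part. In this bulk material, fewer cells of a type and less RNA per cell cannot be told apart. The 20 macrophage markers summed to 548 to 664 CPM in KO and 401 to 530 CPM in AHA, and 16 NK and cytotoxic markers to 673 to 687 CPM in KO and 518 to 616 CPM in AHA, neither with overlap. Among single genes tested, 16.1% had no overlap. The 10 fibroblast markers summed to 41.1 to 75.9 CPM in KO and 18.5 to 24.6 CPM in AHA. The 20 T cell markers summed to 77.8 to 140 CPM in KO and 59.3 to 103 CPM in AHA, with overlap. Of these lists, 0 members were called by edgeR, and DESeq2 called 1 macrophage marker higher in KO. With only the KO and AHA libraries fitted, or without WT2, edgeR called 3 fibroblast markers higher in KO. WT2 held 244 CPM of the fibroblast markers against 6.27 and 11.1 CPM in the other WT libraries. Gpnmb, a glycoprotein of macrophages, stood at 21.6, 29.5 and 29.6 CPM in KO and 4.28, 8.44 and 15.6 CPM in AHA (1.49, adjusted p = 0.12). It was the highest of the 17 macrophage markers tested, of which 11 lay above 0 and 6 below. Their median was 0.11, and the lowest stood at -0.98. All 14 regulatory T cell and group 2 lymphoid markers tested lay above 0 with a median of 1.01, and 9 had an unadjusted p under 0.05, against 9.84% of all genes tested. These 9 became 1 without KO1, in which Foxp3 stood at 12.3 CPM against 6.17 and 3.91 CPM in KO4 and KO6 and 2.14, 2.09 and 5.64 CPM in AHA. Cell cycle genes gave a median of 0.53 with 21 of 22 above 0, and 0.17 without KO1. Of all 11632 genes tested, 6366 lay above 0 and 5265 below, and members of a list were measured in the same libraries. The keratins Krt14, Krt5 and Krt8 and the endothelial genes Cldn5, Emcn and Tek were at 0 counts in all 6 libraries. The 8 epithelial markers summed to 1.495 to 2.74 CPM in KO and 0.594 to 0.871 CPM in AHA, and the 10 B cell markers to 10.7 to 11.2 CPM in KO and 12.4 to 17.4 CPM in AHA, neither with overlap. The 9 endothelial markers summed to 62.6 to 72.0 CPM in KO and 64.9 to 86.4 CPM in AHA, with overlap. All 5 eosinophil markers tested lay below 0 (median -0.77, 2 with an unadjusted p under 0.05). All 14 dendritic cell and antigen presentation markers tested lay above 0 (median 0.14, 1 with an unadjusted p under 0.05). The 8 monocyte markers tested were split, 4 above 0 and 4 below. The part of these cells in the called genes was not tested. Without KO1 and AHA2 together, 30 genes were higher and 23 lower.

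The same contrast in lung used libraries that the neutrophil contrast did not, from mice of the same lines. Of 17458 genes tested in lung, 171 were called (0.979%), 94 higher and 77 lower in KO. Of the 53 genes called in neutrophils, 49 were tested in lung, 43 had the same direction there, 22 were called in that direction and 1 was called in the other. The median log2 difference of the genes higher in KO was 3.88 in neutrophils and 0.95 in lung, and that of the lower genes was -2.18 and -1.01. These genes were chosen by their neutrophil values, so smaller medians in lung would follow from that choice alone. Tpm3-rs7 was at 271 to 288 CPM in KO lung and 1.84 to 2.27 CPM in AHA lung (7.01). Rps3a1 (-2.32), Rps3a3 (8.96), mt-Nd3 (-3.84) and Gm28438 (3.54) also kept their direction and were called in lung. Gbp2b was low in KO lung, at 38.3 to 51.1 CPM, and still far above AHA lung at 0.142 to 0.701 CPM. Ifi44l was at 1.07 to 3.59 CPM in KO lung and 0 to 0.139 CPM in AHA lung. Cxcl1 was scarce there, at 0 to 0.463 CPM in KO and 0.843 to 1.34 CPM in AHA (-2.35, adjusted p = 0.0396).

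The difference between the mutants was not the same in the neutrophil and the lung libraries for some genes. No pouch or LPS is given for the lung libraries, so tissue and LPS treatment cannot be told apart in this comparison. The interaction, the neutrophil difference minus the lung difference, passed an adjusted p of 0.05 for 51 of 18180 genes tested (0.281%), and for 16 of the 53 genes called in neutrophils. The neutrophil values that chose these 53 also enter the interaction, so their share is raised by that choice. Muc1 stood at 243 to 378 CPM in KO lung and 209 to 228 CPM in AHA lung, so the loss seen in KO neutrophils had no counterpart there (interaction -4.11, adjusted p = 6.47e-11). Trim46, its neighbour, behaved alike, with 8.43 to 12.3 CPM in KO lung and 4.58 to 8.91 CPM in AHA lung (interaction -3.36). Ifi44 stood at 13.4 to 16.05 CPM in KO lung and 5.90 to 16.99 CPM in AHA lung, with overlap (interaction 2.67, adjusted p = 0.00385). Gm8909 was lower in KO lung, at 0 to 0.405 CPM against 0.783 to 1.70 CPM, and higher in KO neutrophils. The interaction count was 26 without AHA2.

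**Figure D5:**
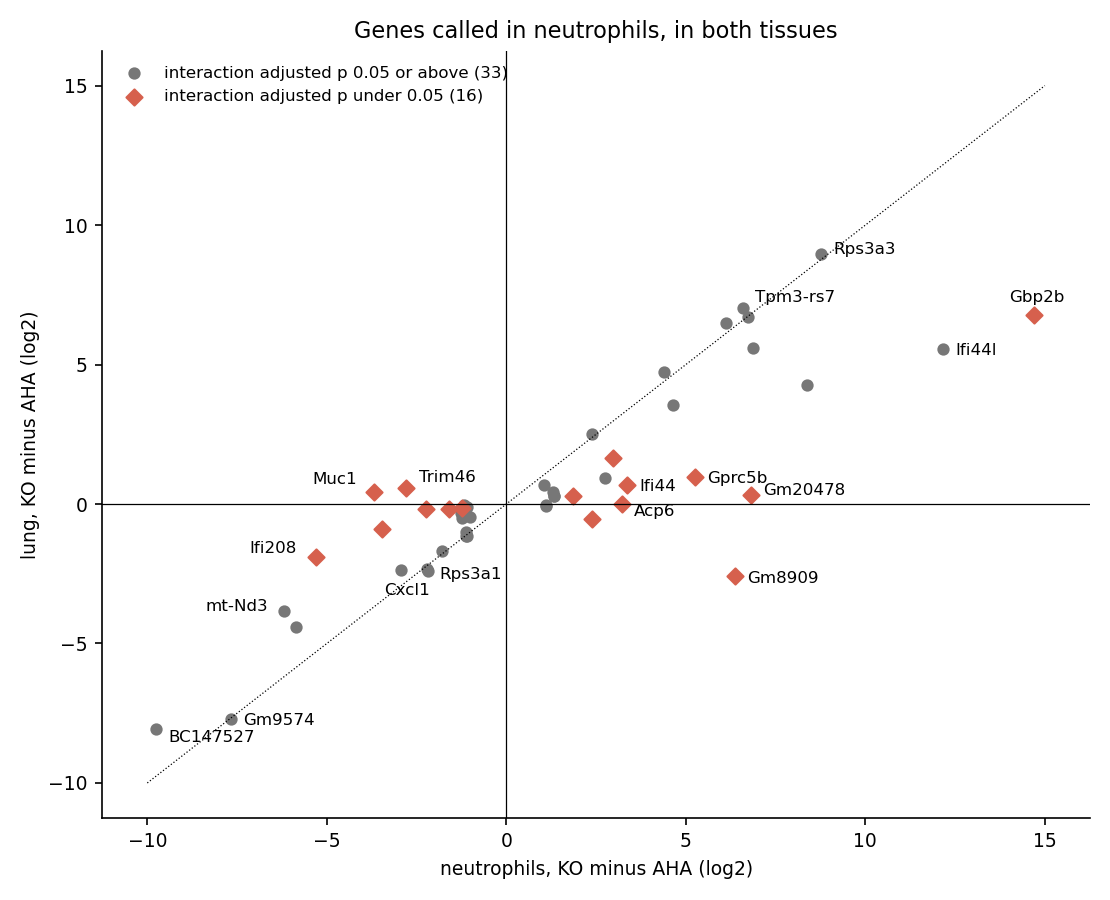
Log2 difference of KO minus AHA in lung (vertical axis) against that in neutrophils (horizontal axis) for the 49 genes called in neutrophils and tested in lung; diamonds have an interaction adjusted p under 0.05 (16 genes), and the dotted line marks equal differences. Tpm3-rs7, Rps3a3 and Gm9574 lie near the line, Muc1, Trim46 and Acp6 near 0 in lung, and Gm8909 on the other side of 0.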

How the data were processed

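RNA from pouch neutrophils (3 WT, 3 AHA, 3 KO) and lung (3 WT, 4 AHA, 4 KO) was analysed. Per the labels, base calling used CASAVA, trimming fastp, alignment STAR to mm10 and counting featureCounts; tool versions, the strand setting and the treatment of multiply matching reads were not given in the sources used here. Raw counts per gene were deposited by the authors and were tested here. Deposited FPKM were made by the authors from counts and gene length with a constant per library (2.20 to 3.07 times CPM per kilobase in KO and AHA), and were used in an alternative only. The deposited fold changes (log2), p-values and Wald statistics of each mutant against WT, made by the authors, were not used.

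Counts were fitted with edgeR 4.0.16 in R 4.3.3 (TMM, default filter by genotype, robust quasi-likelihood test) over the 9 neutrophil libraries, the 11 lung libraries, or all 20 for the interaction, with Benjamini-Hochberg adjustment over all genes tested. Genes were called at an adjusted p under 0.05 and a log2 difference beyond 1. CPM use the effective library sizes. Total counts were 17109497 to 23522678 in the KO and AHA neutrophil libraries. Groups at 0 were compared with a floor of 3 counts over the group, and intervals cover counting error only. Alternatives used DESeq2 1.42.0, limma 3.58.1 on log2(FPKM + 1) and log2(FPKM + 0.1), other filters and scalings, a replicate block and each library left out. The procedure was tested on simulated counts. Copies were matched with blastn 2.17.0 and aligned with mafft 7.526; figures used matplotlib 3.10.9.

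Genes were named by rule: in each direction the 12 largest changes and 4 others with the smallest p among called genes without overlap and with a mean of at least 1 CPM in the higher group, up to 3 called members per list, Ager, genes named by the study for these neutrophils, and RAGE ligands. The members and lists were chosen with earlier results of these data known; list members beyond the rule are examples chosen after their values were seen. Coordinates are those of the count table on mm10.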

Additional observations from a re-analysis of the deposited data

Results flagged for a closer look

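For 19 genes named in the text the difference between KO and AHA was not the same in neutrophils as in lung, by the test of the interaction (log2, neutrophils minus lung, adjusted p under 0.05 by edgeR). The values were 7.98 for Gbp2b, 9.25 for Gm8909, 8.27 for Gm20478, 7.50 for Ager, 4.30 for Gprc5b, 3.23 for Acp6, 2.95 for Pgf, 2.67 for Ifi44, 1.59 for Gde1 and 1.30 for Rnf5. Below 0 they were -4.11 for Muc1, -3.43 for Ifi208, -3.36 for Trim46, -2.60 for Mid1, -2.13 for Il1a, -2.09 for Ptgs2, -2.05 for Ankrd66, -1.44 for Wwc2 and -1.10 for Parp8. Il1a and Ptgs2 were not called in neutrophils and were higher in KO lung (1.21 and 1.22). The reasons were not tested.

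Among the lung libraries, 1 value lay far from the rest of its group for each of 2 genes: Ifi44 at 17 CPM in AHA4, the highest of the 4 AHA libraries, and Tpm3-rs7 at 1.84 CPM in AHA3, the lowest of them. Chance gives about 1 such value in 20 groups.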

How the results depend on the processing

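None of the 53 called genes changed direction in the 19 alternatives that refitted all genes, and 31 stayed called in each that tested them; 38 stayed called without each of the 9 libraries. Against 26 higher and 27 lower, scaling by total counts gave 40 and 16, no filter on low counts 47 and 43, and DESeq2 30 and 39. With at least 1 CPM in both genotypes (chosen after seeing the data, like the summed copies, the genes near Ager and the pair of libraries left out), 9 were higher, since this removes genes absent from one group. More genes were lower than higher under that rule, so the even split depended on genes near 0 in one group. Leaving out 1 library gave 21 to 28 higher and 19 to 41 lower, the 41 without AHA4 and the 19 without AHA2, and 21 to 26 list members called against 24. In lung it gave 68 to 114 higher and 54 to 97 lower. The interaction count of 51 became 279 with DESeq2, 313 without a filter, and 26 to 74 without 1 neutrophil library of KO or AHA. Reversed values were all of genes not called: by total counts Lgals3 0.087, Ly6c2 0.062, App 0.13 and S100a9 0.21; and with 1 library left out Ly6c2 (-0.39 to 0.045, above 0 without AHA2), S100a9 (-0.19 to 0.13, above 0 without AHA2) and S100a13 (-0.22 to 0.23, below 0 without KO1). Their cause was not tested. Replicate numbers 4 and 6 occur in both mutants. The deviations of same-numbered libraries gave r = -0.19 and 0.05, against -0.22 to 0.30 for differently numbered ones. So few pairs cannot show whether the numbers mark a shared day or batch, and the main fit did not use them. With the replicate block 29 genes were higher and 25 lower, 44 of the 53 among them, and 24 list members were called. Depth limits the low genes: a gene absent from a group is bounded by 3 counts.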
